A study of Mus musculus with 36 samples.

Results

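The transcripts described here come from 35 genes of sugar metabolism and of the response to low oxygen: transporters of hexoses and of lactate, the enzymes of glycolysis and of the pentose phosphate pathway, mannose phosphate isomerase, regulators of glycolytic flux, and Hif1a with 2 of its known targets. They were taken from a fixed list of gene symbols that was written with earlier results of these data known. All 35 were found among the 26348 gene identifiers of the count files. They were measured in single microglia, the resident macrophages of the brain, sorted from cortex and from hippocampus of male mice aged 6 months. The mice were APPswe/PSEN1dE9 (APP/PS1) transgenics, which deposit amyloid and are called APP here, or wild-type controls (WT). Live nucleated cells with high CD11b and intermediate CD45 were sorted as negative or positive for CD11c, an integrin that microglia near amyloid plaques carry, and were sequenced in 36 libraries by a full-length protocol based on Smart-seq2. Counts were summed over the cells of each animal or pool, region and gate, which gave 23 replicates.

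The 6 groups were CD11c-negative cells of WT cortex (390 cells, n = 4), of APP cortex (454 cells, n = 4), of WT hippocampus (438 cells, n = 4) and of APP hippocampus (426 cells, n = 4), and CD11c-positive cells of APP cortex (587 cells, n = 4) and of APP hippocampus (362 cells, n = 3). No CD11c-positive cells of WT mice were analysed here, so the gate was compared within APP mice only. All groups share sex, age, the mechanical isolation in the cold and the sort on CD11b and CD45. The transgenes of this line are driven by prion protein promoter elements, which are active in neurons and in other cells. The CD11c-positive replicates of hippocampus are named 1-2, 2-3 and 4 in the titles, so the first pair may be pools of animals that share an animal.

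Glycolysis breaks glucose down to pyruvate in the cytosol and yields ATP without oxygen, and lactate dehydrogenase turns the pyruvate into lactate when flux is high. The pentose phosphate pathway branches off at glucose-6-phosphate and supplies NADPH and ribose. The transcription factor HIF-1 raises many of these genes when oxygen is low, and activated macrophages, microglia included, are known to use it to move from oxidative metabolism to glycolysis.

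Replicates held 1037425 to 4484427 counts, and a cell held a median of 19482 counts in 805 genes. Itgax, the gene for CD11c, followed the gate: it ran from 66.7 to 185 CPM (counts scaled to a total of 1000000) in the CD11c-positive replicates and from 0 to 36.4 in the others. Summed markers of microglia were found in every replicate, at 7505 to 22245 CPM. Prnp, whose promoter elements drive the transgenes, was at 101 to 328 CPM in APP cortex against 13.5 to 82.8 CPM in WT cortex, and at 0 to 94.0 CPM in APP against 0 to 1.51 CPM in WT hippocampus. App did not separate the genotypes. It was at 25.0 to 314 CPM in CD11c-negative and 82.7 to 210 CPM in CD11c-positive APP cortex, against 51.4 to 228 CPM in WT cortex. In hippocampus these ranges were 79.0 to 127 and 37.4 to 126 CPM, against 0 to 131 CPM in WT. Markers of neurons summed to 486 to 1994 CPM in the cortical replicates and to 0 to 246 CPM in the hippocampal ones. These checks and marker sums are CPM of the plain library total. The genotype tag of the labels contradicts the sample title in 17 of 36 libraries, and the titles were used. The titles also hold a number that may mark a library set: both gates of an APP animal share it in cortex and not in hippocampus, and WT and APP animals never share it, so for the hippocampal gate and for genotype the set and the group cannot be told apart. No set holds both regions, and region and set cannot be told apart either, in animals with both regions included.

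All 35 genes passed the filter on low counts. Levels are CPM scaled with TMM factors, per gene and not per length, so levels are compared between groups of 1 gene and not between genes. The 35 genes together took 2826 ± 137 CPM (SD, n = 4) in WT cortex, 2955 ± 333 (n = 4) in CD11c-negative APP cortex and 4152 ± 177 (n = 4) in CD11c-positive APP cortex. In hippocampus the sums were 2870 ± 315 (n = 4), 3300 ± 277 (n = 4) and 4222 ± 148 (n = 3). The replicates of both CD11c-positive groups lay above all others, the lowest of them at 3969 CPM and the highest of the others at 3712 CPM. In such sums, fewer cells of a type and less RNA per cell cannot be told apart.

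**Figure D1:**
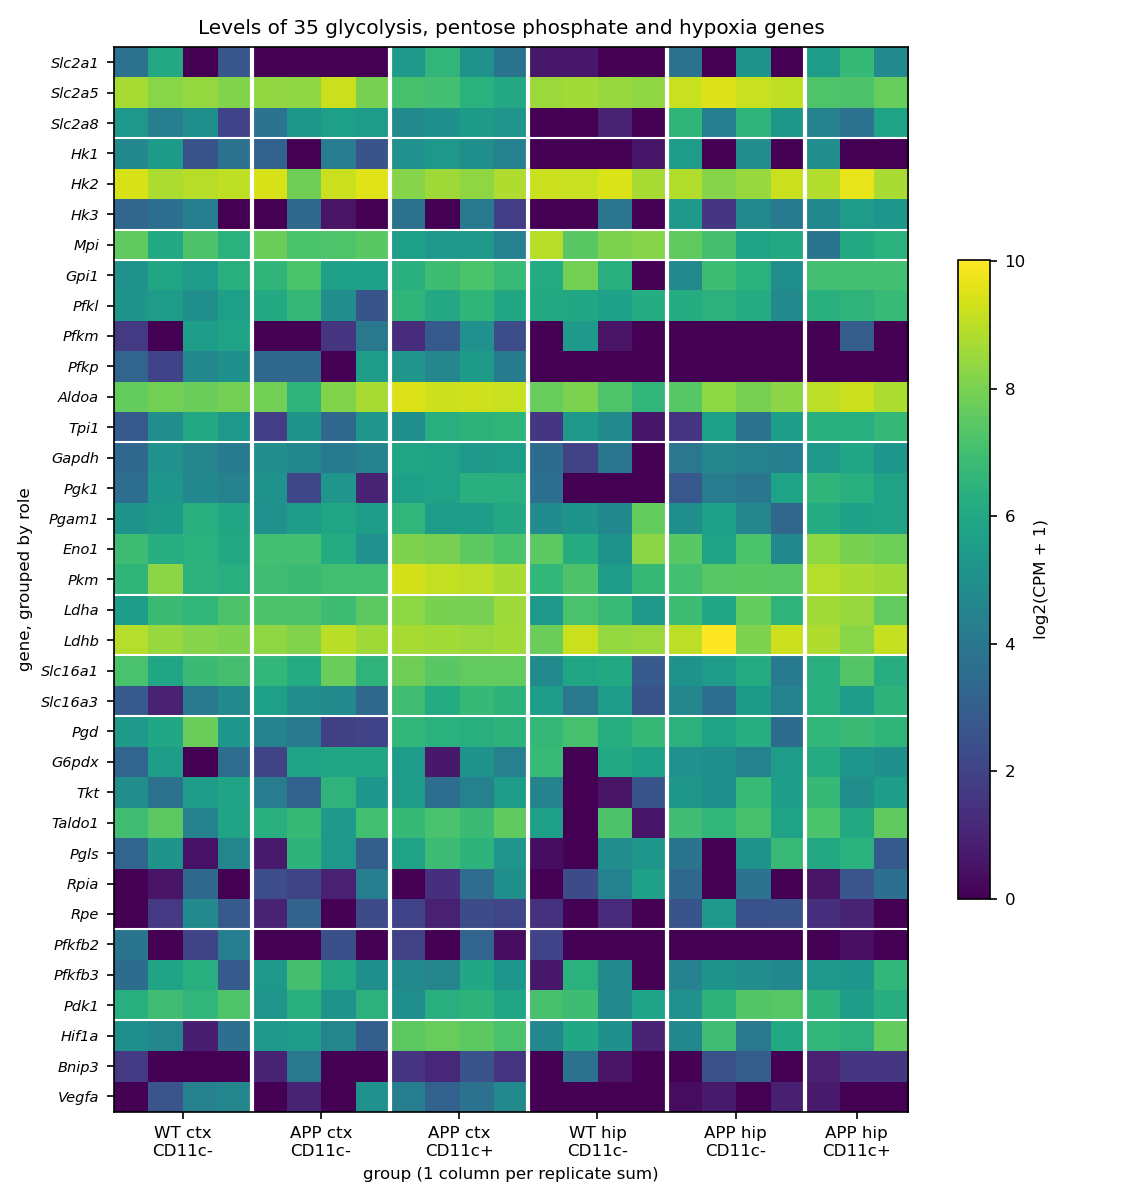
Levels of the 35 genes, as log2(CPM + 1), with 1 row per gene grouped by role and 1 column per replicate sum, ordered by group (WT or APP, cortex or hippocampus, CD11c-negative or CD11c-positive). Pkm and Aldoa are brightest in the CD11c-positive columns of both regions, Slc2a5 is dimmer there, and Pfkp is at 0 in all hippocampal columns.

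In APP cortex, CD11c-positive microglia held more transcripts of pyruvate kinase, of the glucose transporter Slc2a1 and of the pentose phosphate enzyme Pgd than CD11c-negative microglia, and fewer of the fructose transporter Slc2a5 and of Mpi. Tested with edgeR (quasi-likelihood F test, p adjusted by Benjamini and Hochberg's method across 14892 genes), 3 of the 35 genes rose and 2 fell. Of all genes tested, 0.524% rose and 0.705% fell. That balance depended on the method: 78 genes rose and 105 fell by edgeR, 342 and 264 by DESeq2, 562 and 222 by limma voom, and 325 and 129 with the mean of CPM per cell. The median log2 fold change was 0.91 over the 35 genes and 0.19 over all genes tested, and 26 of the 35 had a positive fold change.

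**Figure D2:**
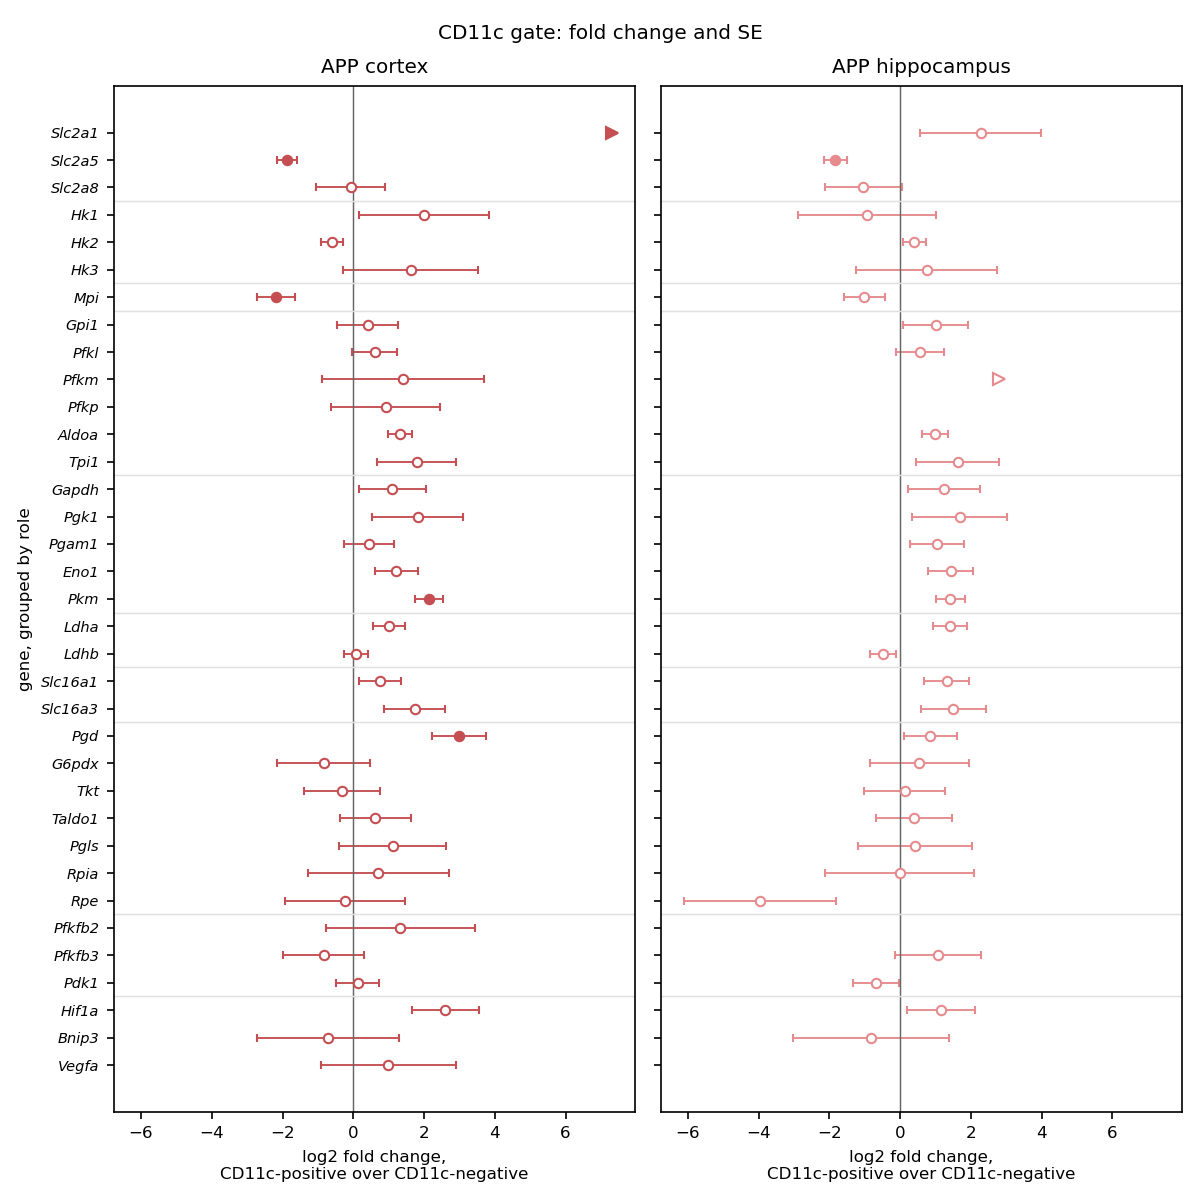
Log2 fold change of CD11c-positive over CD11c-negative APP microglia with its SE, for each gene in cortex (left) and hippocampus (right). Filled symbols passed adjusted p 0.05, triangles are lower bounds against a group with 0 counts, and genes with at most 3 counts in both groups are not drawn. Slc2a5 is filled on the negative side in both regions, and Pkm is filled on the positive side in cortex.

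Among the hexose transporters, Slc2a5 encodes GLUT5, a fructose carrier that microglia are known to express. Its levels were 136, 129, 84.0 and 65.8 CPM in the 4 CD11c-positive replicates of APP cortex and 333, 331, 602 and 248.7 CPM in the 4 CD11c-negative ones. Each positive replicate lay below each negative one, and Slc2a5 fell by 1.87 ± 0.29 on the log2 scale (edgeR adjusted p = 0.000485). This call held in 20 of 20 alternative settings. Slc2a1 encodes GLUT1, the widespread carrier of basal glucose uptake. It was read at 41.6, 96.9, 34.9 and 13.6 CPM in the CD11c-positive replicates and at 0 in all 4 CD11c-negative ones. The 666 counts stood in 38 of 587 positive cells against 0 of 454 negative cells, and the level was at least 157-fold higher against a floor of 3 counts over the negative group (edgeR adjusted p = 0.0399). Endothelial cells are known for much Slc2a1, and the summed endothelial markers were also higher in the CD11c-positive replicates of cortex, at 517 to 668 CPM against 200 to 498 CPM. Most of that sum was Bsg (569 ± 54.6 CPM in CD11c-positive against 289 ± 110 in CD11c-negative replicates, n = 4 each), a gene that many cell types use. Of the other 7 markers, Slco1a4 and Ly6c1 had the higher mean in CD11c-positive replicates, at 14.4 against 0 and 6.56 against 5.28 CPM. Flt1, Itm2a, Pecam1 and Cldn5 had the lower one, at 10.02, 9.47, 6.55 and 0.661 CPM against 18.7, 18.3, 23.7 and 3.33 CPM, and Kdr was at 0 against 6.75 CPM. Of the 38 cells with Slc2a1, 7 held a count of any endothelial marker other than Bsg (18.4%, against 11.5% of the other cells of that group), and the part of endothelial RNA in the result was not tested. Slc2a8, the intracellular carrier GLUT8, overlapped between the gates, at 27.1 to 42.9 and 12.9 to 50.1 CPM.

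The hexokinases phosphorylate the incoming sugar and none passed the test. Hk2, the inducible isoform, was at 367 ± 70.4 CPM with CD11c and 558 ± 227 CPM without it (n = 4 each), and these ranges overlapped. Hk1 was at 20.5 to 39.7 against 0 to 18.1 CPM, and Hk3 was at 15.4 CPM or less in both gates. Mpi, which links mannose phosphate to the glycolytic fructose phosphate, was at 49.3, 39.4, 42.3 and 20.5 CPM in the CD11c-positive replicates. Its 4 CD11c-negative replicates stood at 218, 144, 154 and 174 CPM, so the groups did not overlap. Mpi fell by 2.19 ± 0.55 on the log2 scale (edgeR adjusted p = 0.0443).

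In upper glycolysis, Aldoa, the aldolase that splits the fructose bisphosphate, came nearest to the threshold. It was at 730, 616, 627 and 573 CPM in the CD11c-positive replicates of APP cortex, whereas the CD11c-negative ones held 236, 91.3, 275 and 417 CPM. The groups did not overlap, yet the log2 fold change of 1.32 ± 0.35 missed the threshold (edgeR adjusted p = 0.065). The isomerases Gpi1 and Tpi1 had log2 fold changes of 0.41 ± 0.86 and 1.79 ± 1.12. The phosphofructokinases Pfkl, Pfkm and Pfkp, which catalyse the committed step, had log2 fold changes from 0.60 to 1.40, all within 1 SE of 0.

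In lower glycolysis, Pkm encodes pyruvate kinase M, which makes pyruvate and ATP in the last step. The 4 CD11c-positive replicates of APP cortex held 655, 547, 516 and 431 CPM of Pkm. The 4 CD11c-negative ones held 122, 113, 126 and 125 CPM, a far narrower range that lay wholly below. Pkm rose by 2.14 ± 0.40 on the log2 scale, a factor of 4.42 (edgeR adjusted p = 0.0041), and the call held without any single replicate of either group. The other enzymes of the stage all had positive fold changes that did not pass the test. Eno1, an enolase, was at 145 to 272 CPM against 32.6 to 131 CPM, a log2 difference of 1.22 ± 0.60 (edgeR adjusted p = 0.428). Pgk1, a kinase that makes ATP, ran from 49.0 to 81.2 against 1.02 to 36.1 CPM, Gapdh from 42.3 to 58.4 against 16.7 to 29.7 CPM, and the mutase Pgam1 from 44.3 to 94.6 against 32.5 to 57.8 CPM.

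**Figure D3:**
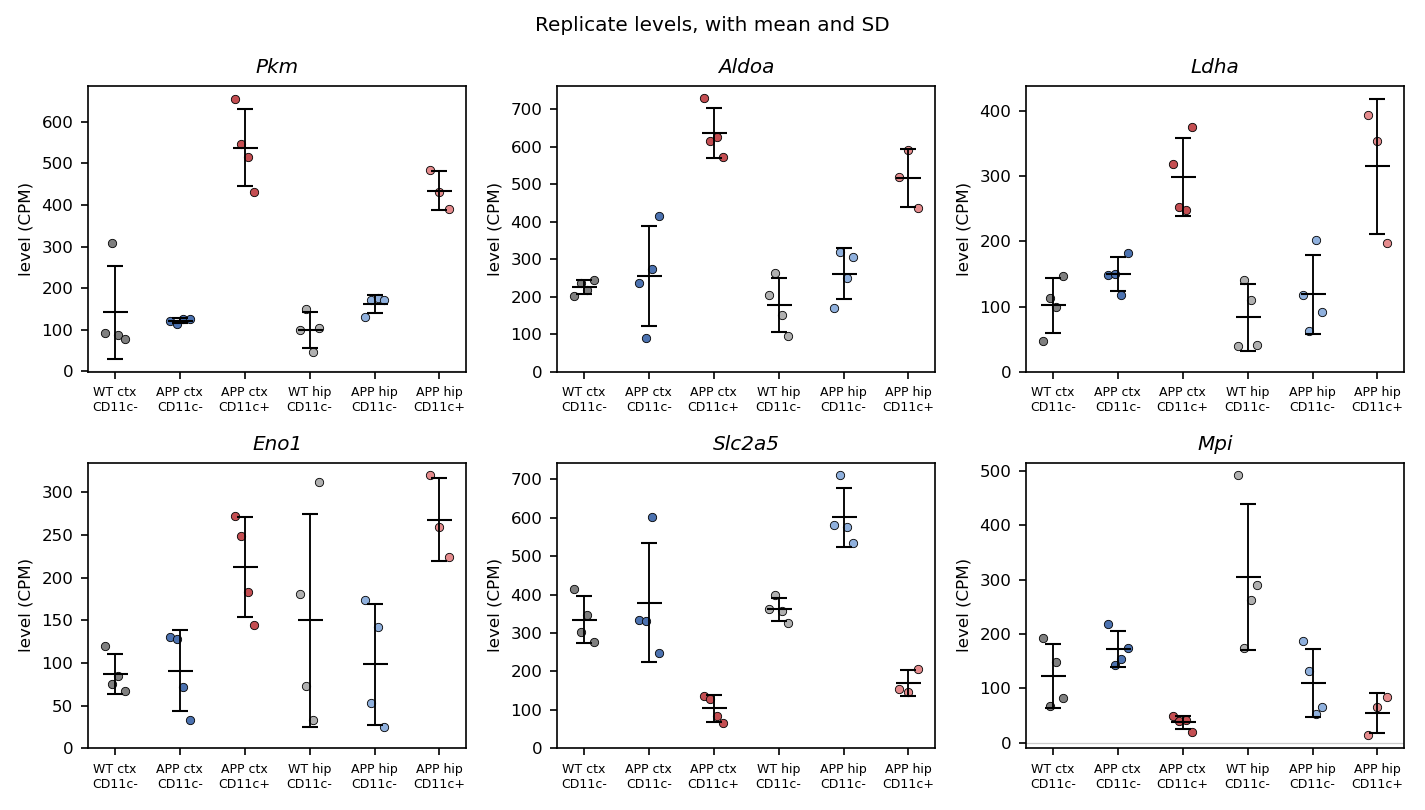
Replicate levels in CPM (points) with mean and SD (bars) for Pkm, Aldoa, Ldha, Eno1, Slc2a5 and Mpi in the 6 groups. The 7 CD11c-positive replicates of Pkm sit between 389 and 655 CPM, above the highest of the other replicates at 310 CPM.

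At the lactate step, Ldha encodes the dehydrogenase subunit that favours lactate formation and Ldhb the subunit that favours its use. Ldha was at 318, 253, 248 and 375 CPM in the CD11c-positive replicates of cortex and at 149, 150, 118 and 181 CPM in the CD11c-negative ones. The groups did not overlap, and the log2 fold change was 0.999 ± 0.453 (edgeR adjusted p = 0.377). Ldhb was at 393 ± 20.7 against 375 ± 95.2 CPM (n = 4 each). Of the lactate carriers, Slc16a3 (MCT4, an exporter) was at 70.3 to 122 CPM in the positive replicates, above the 9.17 to 51.1 CPM of the negative ones, with no overlap and edgeR adjusted p = 0.444. Slc16a1 (MCT1) was at 177 to 232 against 71.1 to 214 CPM.

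In the pentose phosphate pathway, Pgd encodes the second NADPH-making enzyme, 6-phosphogluconate dehydrogenase, at chr4:149149991-149166771. Its CD11c-positive replicates held 97.4, 83.1, 76.9 and 87.9 CPM and its CD11c-negative ones 21.1, 15.6, 2.71 and 3.06 CPM. All 4 negative replicates were low, and Pgd rose by 2.99 ± 0.76 on the log2 scale (edgeR adjusted p = 0.0486). The WT replicates of cortex, given below with genotype, lay both below and above the CD11c-positive ones. The first enzyme of the pathway, G6pdx, did not pass the test, at 0.611 to 44.1 CPM in the positive replicates, overlapping with 3.16 to 60.1 CPM in the negative ones. The lactonase Pgls, the isomerase Rpia and the transaldolase Taldo1 had positive fold changes, the epimerase Rpe and the transketolase Tkt negative ones, all with edgeR adjusted p of 0.947 or more.

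Hif1a, the oxygen-regulated subunit of HIF-1, was at 178, 208, 180 and 141 CPM in the CD11c-positive replicates of cortex. The CD11c-negative replicates held 42.3, 44.2, 22.6 and 7.13 CPM, all far lower. The log2 fold change of 2.59 ± 0.95 did not pass the test (edgeR adjusted p = 0.257). The HIF-1 targets Bnip3, a receptor of mitophagy, and Vegfa, a vessel growth factor, were sparse, in 12 and 16 of 587 CD11c-positive cells. The flux regulators Pfkfb2 and Pfkfb3, which set the level of an activator of phosphofructokinase, and Pdk1, which shuts pyruvate out of the mitochondrial dehydrogenase, had log2 fold changes of 1.33 ± 2.11, -0.83 ± 1.14 and 0.12 ± 0.59.

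The CD11c-positive cortical cells also held more genes per cell at an equal depth of 5000 counts (835 ± 135 against 548 ± 88.6, n = 4 each) and a higher mitochondrial share (2.68 ± 0.566% against 1.30 ± 0.432%). Summed microglia markers were lower in them, at 7505 to 8904 against 11069 to 13638 CPM, and oligodendrocyte markers higher, at 393 to 575 against 141 to 269 CPM, both without overlap. Means of the astrocyte and neuron sums were also higher, at 1680 ± 704 against 928 ± 405 CPM and 1351 ± 333 against 1002 ± 190 CPM, with overlapping ranges. The part of the mitochondrial share and of the marker sums in these results was not tested, beyond leaving out cells with markers of other types. The endothelial list among those markers holds Bsg, so microglia with Bsg could be left out too. Counts of Bsg stood in 313 cells of the CD11c-positive cortical group (587 cells). The other gate had 88 such cells (454 cells). How many cells were left out for Bsg alone was not tested. Genes per cell also entered a fit as a covariate, as log2 of the replicate mean at full depth and not at 5000 counts. With genes per cell as a covariate, or without the 1232 cells of all groups that held 10 or more counts of other cell types' markers, Slc2a5 alone of the 35 genes was called. Both settings also called fewer of all genes, 53 and 62 in place of 183, and the second tested 31 of the 35. Pkm had log2 fold changes of 1.92 and 1.82 in them and was not called (edgeR adjusted p = 0.197 and 0.297). Slc2a1, Pgd and Mpi each missed the threshold when any 1 of the 8 replicates was left out, with edgeR adjusted p up to 0.127, 0.184 and 0.164. In the fit of these 2 groups alone with the animal as a block, Pkm, Slc2a5, Mpi and Hif1a were called.

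Per cell, the higher levels stood mostly in more cells rather than in more counts per cell. Pkm was found in 48.6 ± 6.51% of CD11c-positive cortical cells and 12.2 ± 8.11% of CD11c-negative ones (n = 4 each). In the cells with a count, its level was 1067 ± 256 and 1279 ± 685 CPM of the cell's own counts. Aldoa was found in 56.3 ± 3.29% against 18.7 ± 7.28% of cells, at 1104 ± 172 and 1144 ± 200 CPM in those cells. Ldha, Eno1 and Hif1a likewise had a higher share of cells with a count, and levels in those cells that differed by less than the SD. Slc2a5 differed in the level instead, at 767 ± 182 against 1795 ± 370 CPM in cells with a count. Its shares of cells overlapped, at 12.3 to 16.8% and 13.9 to 31.6% (means 14.0 ± 2.05% and 21.1 ± 7.65%, a difference under the larger SD). Hk2 had a mean share of 43.5 ± 7.04% against 32.9 ± 4.23%, with overlap, and a mean level of 880 ± 134 against 1512 ± 470 CPM, also with overlap. Thinned to 5000 counts, a cell held 3.97 ± 0.761 of the 35 genes in CD11c-positive and 1.69 ± 0.397 in CD11c-negative cortex. These shares and levels are descriptions with no test.

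**Figure D4:**
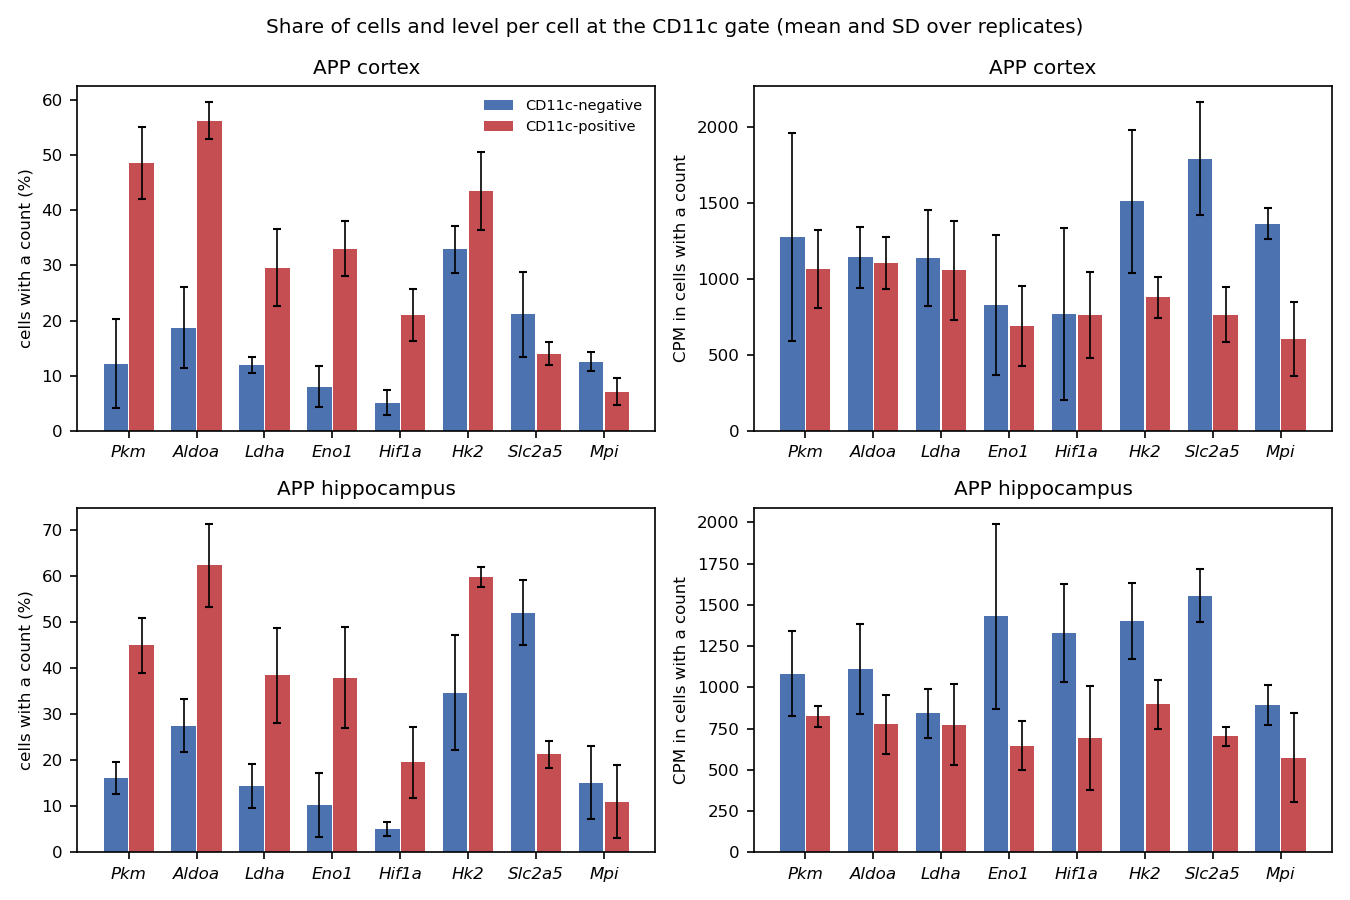
Share of cells with a count in percent (left) and level in those cells in CPM (right) for 8 genes in APP cortex (top) and hippocampus (bottom), as means over replicates with SD bars (n = 4, and n = 3 for CD11c-positive hippocampus). The share of Pkm is 48.6% against 12.2% in cortex while its level per cell with a count differs by less than the SD, and the level of Slc2a5 in cells with a count is 767 against 1795 CPM there.

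In APP hippocampus, CD11c-positive microglia held less Slc2a5 than CD11c-negative ones, and the glycolytic genes that were higher did not pass the test. By edgeR's quasi-likelihood test, 0 of the 35 genes rose and 1 fell, where 0.443% of all genes tested rose and 0.107% fell. With RLE scaling, 41 of all genes rose and 37 fell in place of 66 and 16. At an unadjusted p under 0.05 there were 6 of the 35 genes (17.1%) and 1626 of all genes (10.9%). limma voom called 3 of the 35, and of all genes 284 higher and 52 lower. The median log2 fold change was 0.75 over the 35 genes and 0.0 over all genes tested, and 24 of the 35 were positive.

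Slc2a5 was again the gene that fell. Its 3 CD11c-positive replicates held 153, 147 and 207 CPM and its 4 CD11c-negative ones 582, 711, 576 and 535 CPM. The groups lay far apart, and Slc2a5 fell by 1.83 ± 0.32 on the log2 scale (edgeR adjusted p = 0.0042). It was found in 21.3 ± 2.93% against 52.0 ± 6.97% of cells. In the cells with a count its level was also lower, at 703 ± 58.5 (n = 3) against 1555 ± 160 CPM (n = 4), without overlap. Without CD11c-positive replicate 1-2 or 2-3 the call was lost, with edgeR adjusted p up to 0.0627, and likewise with genes per cell as a covariate and without cells holding other cell types' markers, where 28 and 18 of all genes were called in place of 82. CD11c-positive cells of hippocampus held 872 ± 135 genes at 5000 counts (n = 3) against 622 ± 30.4 (n = 4), and their mitochondrial share was 2.31 ± 0.326% against 1.14 ± 0.0450%. Microglia markers summed to 10815 to 13106 CPM in them against 18926 to 22245 CPM, and markers of border macrophages to 54.4 to 96.9 against 0 to 12.1 CPM, both without overlap. The astrocyte sum was lower, at 159 ± 18.8 against 326 ± 101 CPM. The part of these in the results at the hippocampal gate was not tested beyond those settings.

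Pkm was at 484, 431 and 389 CPM in the CD11c-positive hippocampal replicates and at 130, 172, 176 and 171 CPM in the CD11c-negative ones. The groups did not overlap, with a log2 fold change of 1.42 ± 0.41 (edgeR adjusted p = 0.152). Aldoa was at 521, 591 and 437 CPM against 170, 319, 250 and 307 CPM, again without overlap, with a log2 fold change of 0.98 ± 0.37 (edgeR adjusted p = 0.317). Ldha was at 394, 354 and 197 CPM against 118, 62.9, 203 and 91.6 CPM. The lowest positive and the highest negative replicate of Ldha crossed, and the log2 fold change was 1.40 ± 0.48 (edgeR adjusted p = 0.264). Eno1 was at 224 to 320 against 24.5 to 174 CPM, Hif1a at 87.0 to 198 against 14.97 to 121 CPM, and Mpi at 13.8 to 83.8 against 53.8 to 187 CPM. Apart from Slc2a5, Pkm, Ldha and Aldoa, no gene of the 35 had an edgeR adjusted p below that of Eno1, 0.416.

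Pgd was at 94.0 to 114 CPM in CD11c-positive and 10.6 to 84.7 CPM in CD11c-negative hippocampal replicates, and Slc2a1 at 27.0 to 104 against 0 to 35.3 CPM. Of the endothelial markers other than Bsg, Pecam1, Kdr and Flt1 were at 7.54, 6.55 and 1.77 CPM in the CD11c-positive replicates and at 25.1, 0 and 0 CPM in the CD11c-negative ones. Cldn5 and Slco1a4 were at 0 in every hippocampal replicate, and Ly6c1 and Itm2a at 0 in the CD11c-positive ones. Of the 33 CD11c-positive cells with Slc2a1, 4 held a count of such a marker (12.1%, against 11.2% of the other cells). The difference of the gate effect between regions was tested in the same fit. By edgeR, 0 of the 35 genes and 0 of 14892 genes passed (0.0% higher and 0.0% lower), while 2 of the 35 and 1116 genes had an unadjusted p under 0.05 and DESeq2 called 248 genes, none of the 35. The 2 genes were Slc2a1 and Hk2. In hippocampus Hk2 was at 462, 801 and 427 CPM in the CD11c-positive replicates and at 466, 294, 359 and 590 CPM in the others. In cortex it was at 295, 388, 330 and 456 CPM against 675, 228, 598 and 733 CPM, and the gates overlapped in both regions. The gate effect of Hk2 differed by 1.004 ± 0.448 on the log2 scale (edgeR adjusted p = 0.618), that of Pgd by -2.13 ± 1.05 (edgeR adjusted p = 0.685) and that of Mpi by 1.18 ± 0.77 (edgeR adjusted p = 0.857). For Slc2a5 the difference was 0.04 ± 0.41 and for Pkm -0.72 ± 0.57.

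Promoters are shown for 6 of the genes that differed between the gates or between CD11c-positive and WT cells, because HIF-1 acts on DNA of a known core sequence. Each run covers 250 bases before to 50 after a gene start of RefSeq (build GRCm38.p6), on the gene's strand. The core of the hypoxia response element was searched as ACGTG or GCGTG on both strands and is set in capitals, in either orientation. The palindrome CACGTG counts once on each strand. Where a gene has several starts, a window with the most matches of its windows is shown. Pkm (gene at chr9:59656368-59679375) has 2 windows, and the one at chr9:59656977-59657276 on the plus strand held 2 matches. Ldha (gene at chr7:46841475-46855627) also has 2 windows and held 7 matches at chr7:46845554-46845853 on the plus strand, 4 of them from 2 palindromes. Slc2a1 (gene at chr4:119108711-119137983) held 2 at chr4:119108495-119108794 on the plus strand. Aldoa (gene at chr7:126795234-126800751) has 3 windows and held 1 at chr7:126799205-126799504 on the minus strand. The windows of Slc2a5 at chr4:150119094-150119393 on the plus strand and of Mpi at chr9:57552703-57553002 on the minus strand, the genes that were lower in CD11c-positive cells, held 0. Windows not shown held 0 matches for Pkm, 0 and 1 for Aldoa and 2 for Ldha. Pgd and Slc2a8 also differed in these comparisons and are not shown. The windows of Pgd held 1 and 0 matches and that of Slc2a8 held 1.
Pkm: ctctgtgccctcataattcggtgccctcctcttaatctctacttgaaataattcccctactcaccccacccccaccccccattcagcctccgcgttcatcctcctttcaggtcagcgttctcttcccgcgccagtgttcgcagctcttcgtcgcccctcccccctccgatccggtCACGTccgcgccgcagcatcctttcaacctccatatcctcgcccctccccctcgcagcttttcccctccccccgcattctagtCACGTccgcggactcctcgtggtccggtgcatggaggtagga
Ldha: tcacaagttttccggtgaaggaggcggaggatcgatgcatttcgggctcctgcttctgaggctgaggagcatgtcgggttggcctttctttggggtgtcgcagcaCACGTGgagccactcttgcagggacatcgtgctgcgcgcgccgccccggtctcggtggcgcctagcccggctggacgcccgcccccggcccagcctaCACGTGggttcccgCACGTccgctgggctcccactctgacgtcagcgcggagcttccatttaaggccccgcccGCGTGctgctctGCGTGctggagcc
Slc2a1: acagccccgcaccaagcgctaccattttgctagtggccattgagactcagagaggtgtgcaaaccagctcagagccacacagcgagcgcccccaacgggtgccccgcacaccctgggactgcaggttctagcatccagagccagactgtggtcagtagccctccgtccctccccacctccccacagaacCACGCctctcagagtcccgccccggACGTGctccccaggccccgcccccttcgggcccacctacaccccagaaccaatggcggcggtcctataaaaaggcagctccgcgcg
Aldoa: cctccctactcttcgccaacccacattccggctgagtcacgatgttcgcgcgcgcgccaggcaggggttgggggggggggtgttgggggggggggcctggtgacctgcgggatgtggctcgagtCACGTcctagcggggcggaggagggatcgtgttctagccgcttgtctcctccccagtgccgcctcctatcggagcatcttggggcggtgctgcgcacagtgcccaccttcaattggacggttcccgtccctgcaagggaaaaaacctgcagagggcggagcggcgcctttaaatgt
Slc2a5: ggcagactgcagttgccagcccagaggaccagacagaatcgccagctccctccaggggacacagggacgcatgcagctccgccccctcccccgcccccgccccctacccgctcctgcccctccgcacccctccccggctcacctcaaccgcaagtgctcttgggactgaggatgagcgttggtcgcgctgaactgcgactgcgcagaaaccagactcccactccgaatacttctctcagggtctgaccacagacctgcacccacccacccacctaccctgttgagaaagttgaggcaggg
Mpi: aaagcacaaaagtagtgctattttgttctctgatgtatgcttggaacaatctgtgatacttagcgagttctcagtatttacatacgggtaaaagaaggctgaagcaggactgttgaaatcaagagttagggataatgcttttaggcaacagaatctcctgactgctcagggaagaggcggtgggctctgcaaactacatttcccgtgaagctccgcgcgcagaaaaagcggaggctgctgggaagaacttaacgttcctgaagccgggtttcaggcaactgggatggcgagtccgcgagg
Of the 51 windows of the 35 genes, 39 held a match (76.5%), against 14380 of all 32851 windows (43.8%). A match is a string of letters, not a bound site, and a window with none says nothing of HIF-1 beyond these 300 bases.

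CD11c-positive APP cells were also set against the CD11c-negative cells of WT mice, a comparison in which genotype and gate differ together and which shares its CD11c-positive replicates with the gate comparison. In cortex 2 of the 35 genes were higher and 1 was lower by edgeR's quasi-likelihood test, where 0.618% of all genes were higher and 0.457% lower. With RLE scaling 69 of all genes were higher and 95 lower, in place of 92 and 68. The median log2 fold change was 0.58 over the 35 genes and 0.15 over all genes tested. The WT replicates of Pkm held 92.9, 310, 86.7 and 78.0 CPM, 1 of them well above the others, and Pkm was higher in CD11c-positive APP cells by 1.92 ± 0.40 on the log2 scale (edgeR adjusted p = 0.0126). Aldoa was at 202, 237, 219 and 244 CPM in WT cortex, a narrow range far below the 573 to 730 CPM of the CD11c-positive cells, with a log2 fold change of 1.498 ± 0.350 (edgeR adjusted p = 0.0299). Slc2a5 was at 414, 302, 346 and 277 CPM in WT cortex, above all CD11c-positive replicates, with a log2 fold change of -1.69 ± 0.29 (edgeR adjusted p = 0.0017).

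Hif1a was at 30.5, 23.5, 0.788 and 11.6 CPM in WT cortex, all far below the CD11c-positive replicates, with a log2 fold change of 3.40 ± 0.98 (edgeR adjusted p = 0.116). Ldha was at 46.7 to 147 CPM in WT cortex against 248 to 375 CPM (edgeR adjusted p = 0.133) and Slc16a3 at 0.872 to 25.0 against 70.3 to 122 CPM (edgeR adjusted p = 0.160). None of these groups overlapped and none passed the test. Pgd and Slc2a1, which were called at the cortical gate, overlapped with WT cortex and were not called against it. The call of Aldoa was lost without any 1 of the 8 replicates, with edgeR adjusted p up to 0.156. That of Pkm was lost without CD11c-positive replicate 1 or WT replicate 1, 3 or 4, with edgeR adjusted p up to 0.0654.

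In hippocampus 4 of the 35 genes were higher in CD11c-positive APP cells than in WT cells and 1 was lower, where 1.18% of all genes were higher and 0.893% lower. The median log2 fold change was 1.08 over the 35 genes and 0.06 over all genes tested. Pkm was at 98.0, 149, 45.9 and 104 CPM in WT hippocampus, all far below the CD11c-positive replicates, and differed by 2.13 ± 0.42 (edgeR adjusted p = 0.0048). Aldoa was at 206, 262, 152 and 94.7 CPM, also without overlap, and differed by 1.53 ± 0.37 (edgeR adjusted p = 0.026). Ldha was at 39.7, 141, 111 and 41.5 CPM and differed by 1.92 ± 0.49 (edgeR adjusted p = 0.0363), with its lowest CD11c-positive replicate at 197 CPM above the highest WT one. The remaining higher gene, Slc2a8, is described with genotype.

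Mpi was high in WT hippocampus, at 492, 174, 263 and 290 CPM, against 13.8, 66.3 and 83.8 CPM in the CD11c-positive cells. The groups did not overlap, with a log2 fold change of -2.48 ± 0.62 (edgeR adjusted p = 0.0317). Slc2a5 was at 325 to 399 CPM in WT hippocampus, above the 147 to 207 CPM of the CD11c-positive cells, and narrowly missed the threshold (edgeR adjusted p = 0.071). Pkm and Slc2a8 kept their calls without any single replicate. Ldha, Aldoa and Mpi lost theirs without any 1 of the 3 CD11c-positive replicates, and once genes per cell entered the fit as a covariate 0 of the 35 genes were called by edgeR, where 1 of them had an unadjusted p under 0.05. Without cells holding other cell types' markers 0 of 31 tested were called, and 7 had such a p. In these settings the median log2 fold change of the 35 and of the 31 genes was 1.25 and 1.02, against 1.08 in the reported fit, and 2 and 77 of all genes were called in place of 309. WT hippocampal cells held 437 ± 37.4 genes at 5000 counts (n = 4) and CD11c-positive ones 872 ± 135 (n = 3).

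Among CD11c-negative cells of cortex, none of the 35 genes passed the test between APP and WT mice. By edgeR 0 of the 35 and 0 of 14892 genes passed (0.0% higher and 0.0% lower in APP cells), while 2 of the 35 and 1354 of all genes had an unadjusted p under 0.05. DESeq2 called 2 of the 35, Pgd and Slc2a1, and 245 genes in all. The 35 genes had a median log2 fold change of 0.07, against 0.0 over all genes tested. Pgd was at 40.6, 64.1, 217 and 37.8 CPM in WT cortex, each above all 4 CD11c-negative APP replicates given above, with a log2 fold change of -3.05 ± 0.76 (edgeR adjusted p = 0.519). Slc2a1 was at 12.9, 64.9, 0 and 5.48 CPM in WT cortex, in 4 of 390 cells, against 0 in APP cortex. Pdk1 was at 79.2, 124, 96.5 and 152 CPM in WT and 36.9, 81.2, 34.3 and 85.6 CPM in APP cells, with overlap and a log2 fold change of -0.93 ± 0.60 (edgeR adjusted p = 0.807). Ldha was at 46.7, 114, 99.7 and 147 CPM in WT cells and Mpi at 192, 67.6, 149 and 82.9 CPM, both overlapping with APP cells, with log2 fold changes of 0.56 ± 0.45 (edgeR adjusted p = 0.974) and 0.49 ± 0.52 (edgeR adjusted p = 1).

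In hippocampus 1 of the 35 genes was higher in APP than in WT CD11c-negative cells and 0 were lower, where 0.329% of all genes were higher and 1.19% lower. Their median log2 fold change was 0.52, against 0.01 over all genes tested. The gene was Slc2a8, at chr2:32972990-32982083. It was at 0, 0, 0.918 and 0 CPM in WT hippocampus, 2 counts in 1 of 438 cells, and at 92.2, 19.2, 91.1 and 38.4 CPM in CD11c-negative APP hippocampus, 781 counts in 29 of 426 cells. The ratio of depth-scaled summed counts was 426, with a 95% exact binomial interval from 117 to 3522 (edgeR adjusted p = 0.0013). Such an interval takes each count as an independent draw, although the counts stood in 29 cells and in 1. It does not cover the spread between cells or animals. CD11c-positive APP cells of hippocampus held 21.0, 12.7 and 54.8 CPM of Slc2a8, a ratio of 121 to WT with an interval from 33.2 to 1008 (edgeR adjusted p = 0.0048). All APP replicates of both gates lay above all WT replicates.

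Tkt was at 38.1, 30.5, 106 and 48.2 CPM in CD11c-negative APP hippocampus and 21.4, 0, 0.459 and 5.12 CPM in WT, with no overlap and a log2 fold change of 3.02 ± 1.16 (edgeR adjusted p = 0.214). Slc2a5 was at 535 to 711 CPM in these APP cells and 325 to 399 CPM in WT ones, a log2 difference of 0.73 ± 0.28 without overlap (edgeR adjusted p = 0.215). It was found in 52.0 ± 6.97% of APP and 18.7 ± 2.64% of WT cells (n = 4 each). Mpi was at 187, 132, 53.8 and 65.4 CPM in APP against 174 to 492 CPM in WT cells, with overlap and a log2 fold change of -1.47 ± 0.53 (edgeR adjusted p = 0.193). Genes per cell at 5000 counts moved the same way, at 622 ± 30.4 in APP and 437 ± 37.4 in WT cells (n = 4 each). Genes per cell at full depth, at 877 ± 69.1 and 606 ± 87.2, were the measure used as a covariate. With that covariate Slc2a8 was not called, and 25 of all genes were called in place of 226. Nor was Slc2a8 called without cells holding other cell types' markers, where 90 of all genes were called. With libraries grouped by the genotype tag in place of the title it was not called either, and 0 of all 11385 genes tested were.

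**Figure D5:**
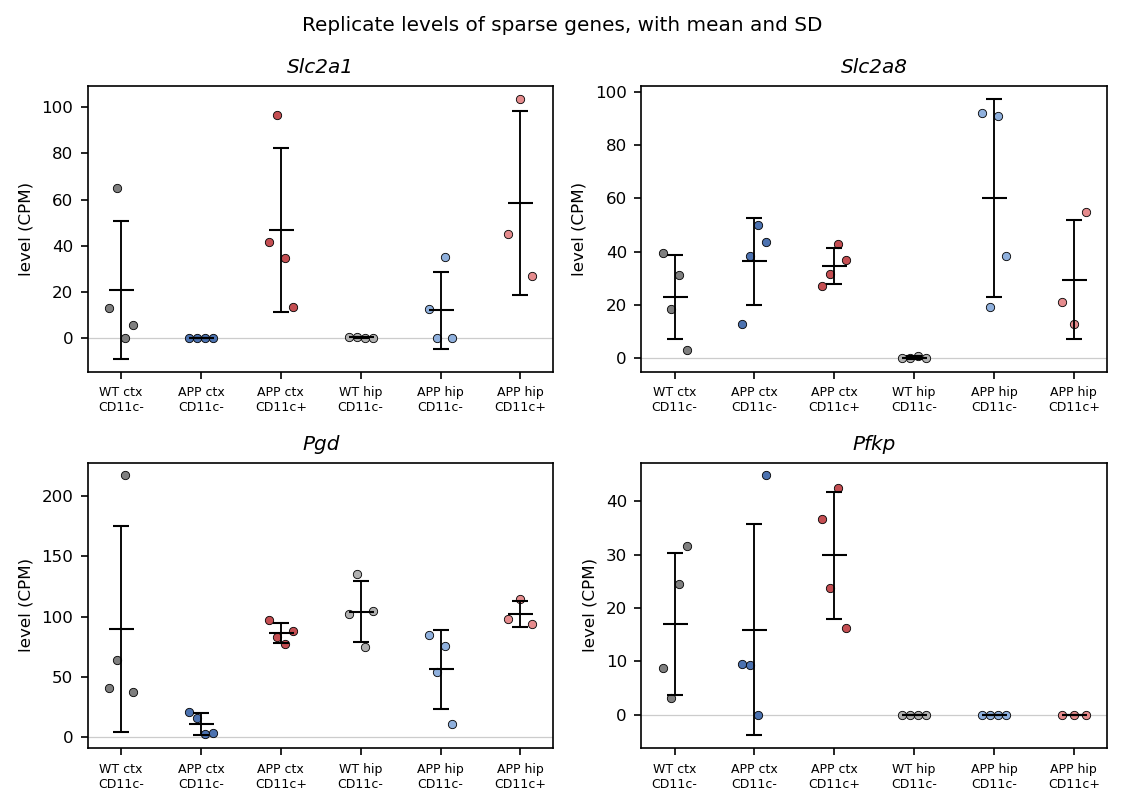
Replicate levels in CPM (points) with mean and SD (bars) for the sparse genes Slc2a1, Slc2a8, Pgd and Pfkp in the 6 groups. Slc2a1 is at 0 in the 4 replicates of CD11c-negative APP cortex, Slc2a8 is at most 0.918 CPM in WT hippocampus, and Pfkp is at 0 in every hippocampal replicate.

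The genotype effect differed between regions for 2 of the 35 genes by the interaction test, both with the larger value in hippocampus, where 0.208% of all genes passed in that direction and 0.799% in the other. They were Slc2a8 (edgeR adjusted p = 0.0198) and Slc2a1 (edgeR adjusted p = 0.0185). Slc2a1 was at 0.564, 0.558, 0 and 0 CPM in WT hippocampus and at 12.5, 0, 35.3 and 0 CPM in CD11c-negative APP hippocampus, where 6 of 426 cells held it. Both rest on groups with 0 to 3 counts, so the fitted sizes are not folds. Without CD11c-negative APP cortex replicate 2, Slc2a1 missed the threshold (edgeR adjusted p = 0.0523). Hk1 was at 24.6, 42.7, 5.12 and 12.8 CPM in WT and 7.57, 0, 18.1 and 5.10 CPM in CD11c-negative cells of APP cortex, and in hippocampus at 0, 0, 0 and 0.512 against 44.2, 0, 29.2 and 0 CPM. Its interaction (edgeR adjusted p = 0.182) and that of Mpi, at -1.96 ± 0.75 (edgeR adjusted p = 0.234), did not pass.

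Between regions, hippocampus was set against cortex within each kind of cell. In WT cells 0 of the 35 genes were higher in hippocampus and 1 was lower, where 0.235% of all genes were higher and 1.4% lower. Their median log2 fold change was -0.41, against -0.22 over all genes tested. The lower gene was Slc2a8, at 39.4, 18.3, 31.1 and 3.05 CPM in WT cortex, each above the WT hippocampal replicates, a ratio of 138 with an interval from 37.9 to 1147 (edgeR adjusted p = 0.0125). Slc16a1 was at 141, 59.7, 113 and 135 CPM in WT cortex and 26.5, 58.6, 68.0 and 6.15 CPM in WT hippocampus, overlapping in 1 pair, with a log2 fold change of -1.49 ± 0.60 (edgeR adjusted p = 0.154). Mpi, Eno1 and Pkm overlapped between the regions. Their log2 fold changes were 1.31 ± 0.53 (edgeR adjusted p = 0.157), 0.79 ± 0.60 (edgeR adjusted p = 0.534) and -0.51 ± 0.39 (edgeR adjusted p = 0.523), and WT hippocampus held 181, 72.6, 33.5 and 312 CPM of Eno1 against 120, 75.4, 84.3 and 67.6 CPM in cortex. In CD11c-negative APP cells 0 were higher and 1 was lower, where 0.154% of all genes were higher and 2.14% lower, and the median was 0.12 over the 35 genes and -0.10 over all genes. This was Pfkp, the platelet-type phosphofructokinase, at chr13:6579768-6648777, with 9.47, 9.37, 0 and 44.8 CPM in cortex and 0 in all 4 hippocampal replicates. It was at least 32.3-fold lower in hippocampus against a floor of 3 counts over that group (edgeR adjusted p = 0.049). Pfkp was at 0 in every hippocampal replicate of all groups and was found in 5 of 390, 6 of 454 and 14 of 587 cells of the cortical groups. The call was lost without 7 of the 8 replicates of these groups, each left out alone, with edgeR adjusted p up to 0.118. In fits of 2 groups alone, with or without the animal as a block, neither Slc2a8 (WT) nor Pfkp (APP) passed the filter on low counts, so these calls were not tested there. Of all genes, edgeR called 0 in WT cells in both such fits, and 234 without and 0 with the block in CD11c-negative APP cells, with 491 to 839 at an unadjusted p under 0.05.

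In CD11c-positive APP cells 0 of the 35 genes passed by edgeR, where 0.0% of all genes were higher and 0.222% lower in hippocampus. At an unadjusted p under 0.05 there were 3 of the 35 (8.57%) and 1675 of all genes (11.2%). DESeq2 called 1 of the 35 and 652 of all genes, and limma voom 2 and 759. The median was -0.03 over the 35 genes and -0.15 over all genes. Slc2a5 was at 147 to 207 CPM in hippocampus and 65.8 to 136 CPM in cortex, with no overlap and a log2 fold change of 0.71 ± 0.30 (edgeR adjusted p = 0.375). Slc16a1 was at 78.6, 160 and 74.4 CPM in hippocampus and 232, 177, 196 and 194 CPM in cortex, also without overlap (log2 fold change -0.94 ± 0.65, edgeR adjusted p = 0.776). Hk2 and Mpi overlapped, with log2 fold changes of 0.62 ± 0.33 (edgeR adjusted p = 0.508) and 0.52 ± 0.56 (edgeR adjusted p = 1). Pkm, Aldoa and Ldha differed by -0.31, -0.30 and 0.08 on the log2 scale. In CD11c-negative APP cells Pgd was at 84.7, 54.3, 75.4 and 10.6 CPM in hippocampus, overlapping with cortex, with a log2 fold change of 2.38 ± 0.74 (edgeR adjusted p = 0.0953). Slc16a1 was at 34.6, 43.7, 71.5 and 17.2 CPM there against 97.2, 71.1, 214 and 89.7 CPM in cortex, nearly without overlap (log2 fold change -1.49 ± 0.60, edgeR adjusted p = 0.192). Ldhb was at 514, 1040, 268 and 615 CPM against 332, 280, 502 and 385 CPM, and Slc2a5 as given above, both overlapping (edgeR adjusted p = 0.263 and 0.211). Summed neuron and astrocyte markers were higher in cortex in all 3 comparisons: the astrocyte sum was 447 to 2439 CPM in cortical and 140 to 484 CPM in hippocampal replicates, and the part of these in the regional results was not tested beyond leaving out cells with such markers. That left 31 of the 35 genes tested, Pfkp not among them, of which edgeR called 0 in the 3 comparisons, with 5, 2 and 1 at an unadjusted p under 0.05. Of all genes it called 0 in WT cells (243 in the reported fit), 59 in CD11c-negative (341) and 0 in CD11c-positive APP cells (33). Slc2a8 was tested there and not called in WT cells (edgeR adjusted p = 0.334).

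Several of these enzymes have near-identical copies in the genome that can take up reads. Per gene summed over all replicates, Gapdh, with 174 annotated copies of at least 90% identity over 300 bases, held 1873 counts of its own against 5740 counts on the copies. Eno1 held 10571 against 8546, on 6 copies, and Ldhb 25620 against 4604 on Gm5514. With the copies added, Gapdh was at 165 ± 26.9 CPM in the CD11c-positive cells of APP cortex, against 105 ± 26.5 CPM in the CD11c-negative cells (n = 4 each), a log2 fold change of 0.64 ± 0.55 (edgeR adjusted p = 0.823). Eno1 was then at 386 ± 118 against 174 ± 90.9 CPM (edgeR adjusted p = 0.455). Levels of Gapdh and Eno1 are therefore uncertain, and Pkm, Ldha and Aldoa, whose copies held 132, 529 and 51 counts, are little affected.

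A wider list of 74 genes of the same pathways, of which 65 were tested, gave 2 calls in all comparisons. At the gate 0 of the 65 rose and 0 fell by edgeR in either region. In CD11c-positive APP against WT cells of cortex 1 was higher: Bsg, the chaperone of the lactate carriers Slc16a1 and Slc16a3, at mean levels of 599 against 267 CPM, a log2 fold change of 1.17 ± 0.28 (edgeR adjusted p = 0.0337). Between regions in WT cells 1 was lower in hippocampus: Aldoc, the aldolase of astrocytes and a gene of the astrocyte marker list, at mean levels of 0.352 against 143 CPM (edgeR adjusted p = 0.0153). In the other comparisons 0 of the 65 passed. The median log2 fold change of the 65 was 0.25 at the cortical and 0.22 at the hippocampal gate.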

How the data were processed

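The deposited values are whole, unscaled counts for each gene in each cell barcode. Per the submitters' processing notes the authors used UMI-tools 0.5.3, HISAT2 2.1.0, featureCounts 1.6.0 and GRCm38 (mm10). No source used here says whether reads with one molecular identifier were merged. Only 27.0% of non-zero values were 1, and values of 20 or more held 88.8% of the counts, so counts of 1 cell may not be independent. Intervals and floors take them as independent and do not cover the spread between cells or animals.

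The 36 libraries had 69 to 80 barcodes and totals from 956491 to 2340598. Cells needed 200 or more genes and no more than 20% mitochondrial counts, which 2657 of 2660 barcodes met. Libraries used the same 83 well barcodes, and 0 of 630 library pairs were identical. Doublets were not called. Symbols came from GENCODE vM21, which matched all 26348 identifiers. Groups came from the titles. Counts were summed to 23 replicates and tested with edgeR 4.0.16 (R 4.3.3; TMM, filterByExpr, quasi-likelihood test, 1 mean per group, 17 residual degrees of freedom, Benjamini-Hochberg at 0.05). SE is the fold change over the root of F. Nothing states that replicates were separate animals beyond the animal numbers of the titles. On simulated counts the fit was checked.

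Animal numbers pair the gates in cortex and the regions, since the titles give the same animal. Deviations of the pairs correlated at -0.0587 to 0.0765 over 3480 genes. Hippocampal gates and genotypes could not be paired.

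The genes and lists were chosen with earlier results of these data known. Replicate values are given for genes past the threshold and for those with the smallest 4 p among genes at 50 CPM or more, and other genes by range. Aldoa, Ldha and Hif1a at the cortical gate were added after their values were seen. Alternatives covered scaling, gene and cell filters, DESeq2 1.42.0, limma 3.58.1 voom, cell weighting, genes per cell, other cell types, the genotype tag and leaving out replicates. Adding near-identical copies was chosen after seeing the data.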

Additional observations from a re-analysis of the deposited data

Results flagged for a closer look

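Pkm stood apart in 1 replicate of 2 groups. In WT cortex, replicate 2 held 309.5 CPM, and its gap to the nearest replicate was 0.936 of the range. In CD11c-negative APP hippocampus, the lowest replicate held 129.7 CPM, with a gap of 0.898 of the range. Both gaps passed the 95% critical value of Dixon's test for 4 replicates. In all 44 sets of replicates were checked, and chance alone passes that value in about 1 of 20 such sets.

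The genotype effect in CD11c-negative cells differed between hippocampus and cortex for Slc2a8 and Slc2a1 by edgeR's interaction test. The fitted difference was 7.15 ± 1.59 on the log2 scale for Slc2a8 (edgeR adjusted p = 0.0198) and 14.04 ± 3.01 for Slc2a1 (edgeR adjusted p = 0.0185). Groups with 0 to 3 counts enter both, so these sizes depend on the prior count of the fit and are not folds. The counts of Slc2a1 stood in 4 cells of WT cortex, 2 of WT hippocampus, 6 of CD11c-negative APP hippocampus and 0 of CD11c-negative APP cortex.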

How the results depend on the processing

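Counts of the 35 genes called are given here against the reported ones, which were 5 (cortical gate), 1 (hippocampal gate), 0 and 1 (genotype in cortex and hippocampus), 3 and 5 (CD11c-positive against WT in cortex and hippocampus), 1, 1 and 0 (region in WT, CD11c-negative and CD11c-positive APP cells), and 0 and 2 (gate by region and genotype by region). DESeq2 called 2 and 5 for genotype, 6 and 11 against WT, and 7, 3 and 1 for region, and of all genes 245 and 1066, 517 and 1215, and 1601, 1160 and 652, in place of 0 and 226, 160 and 309, and 243, 341 and 33. limma voom called 3 for the hippocampal gate, 4 for genotype in hippocampus, 6 and 11 against WT, 4, 2 and 2 for region, and 1 for genotype by region (of all genes 336, 413, 617 and 993, 505, 562 and 759, and 233, where edgeR called 82, 226, 160 and 309, 243, 341 and 33, and 150). With at least 500 genes per cell, 3 were called for the cortical gate, and 1 and 2 against WT. Of all genes, this filter left 145 called (183 in the reported fit) for the cortical gate, and 106 (160) and 275 (309) against WT. With genes per cell as a covariate, or without cells holding other cell types' markers, 1 was called for the cortical gate and 1 against WT in cortex, and 0 for the hippocampal gate, genotype in hippocampus, CD11c-positive against WT in hippocampus, region and genotype by region. Of all genes, the covariate left 53, 28, 25, 63 and 2 called for the gates, genotype in hippocampus and CD11c-positive against WT, 8, 364 and 54 for region and 0 for genotype by region. Leaving out the cells left 62, 18, 90, 69 and 77, then 0, 59 and 0, and 46, with 31 of the 35 genes tested and Pfkp not tested. That setting removed 1232 of 2657 cells, and its endothelial markers include Bsg, a gene that many cell types use. With no gene filter there were 3 for the cortical gate and 0 for region in CD11c-negative APP cells, where RLE scaling also gave 0. Of all genes, no gene filter left 150 and 266 called, of 20731 tested, and RLE scaling 317, in place of 183 and 341. The mean over cells gave 8 against WT in hippocampus, 1 for region in CD11c-positive cells and 1 for genotype by region. Of all genes it called 504, 246 and 111 there, in place of 309, 33 and 150. Grouping by the genotype tag gave 0 for genotype in hippocampus, where 0 of all 11385 genes tested were called, in place of 226. It also turned the uncalled log2 fold changes of Pgd to 1.29 and of Mpi to -0.25 in cortex and of Tkt to -0.29 in hippocampus. The cause of these changes was not tested.

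Fits of 2 groups alone with the animal as a replicate block called 4 for the cortical gate (5 without the block), 0 for region in WT and 0 for region in CD11c-negative APP cells (0 and 0 without the block). They tested 32, 26 and 29 of the 35 genes, and the genes called for region in the reported fit (Slc2a8 in WT, Pfkp in CD11c-negative APP cells) were not tested there. Of all genes they called 271, 0 and 0 (434, 0 and 234 without the block). Leaving out single replicates gave 2 to 3 for the cortical gate, 0 to 1 for the hippocampal gate, 1 to 2 for genotype in hippocampus, 1 to 2 and 2 to 5 against WT in cortex and hippocampus, 1 to 2 for region in WT, 0 to 1 for region in CD11c-negative APP cells and 1 to 3 for genotype by region. All-gene counts of the single-replicate fits are not given here, so a loss particular to the 35 genes cannot be read from these ranges. Over all 20 alternatives at the cortical gate, these fits among them, 53 to 784 of all genes were called, in place of 183. Without WT cortex replicate 2, the uncalled regional log2 fold change of Pkm in WT cells turned to 0.21 (range -0.76 to 0.21), and that of Mpi in CD11c-positive cells was -0.19 with limma voom. RLE scaling moved the median log2 fold change of all genes from 0.15 to 0.02 for CD11c-positive against WT in cortex, from 0.01 to 0.14 for genotype in hippocampus and from -0.22 to -0.34 for region in WT. Of 362 alternative values of the 19 called folds, 244 stayed past the threshold, 118 did not and 0 changed sign. Adding the near-identical copies, chosen after seeing the data, left 4 genes called at the cortical gate, without Pgd. Pgd itself has 0 such copies, so no counts were added to it. Of all genes 177 were then called there, in place of 183.

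Values rest on few cells for sparse genes, and on 3 or 4 replicates a group. The counts of Slc2a1, Slc2a8, Pfkp, Pfkm, Hk1, Rpia, Rpe, Bnip3, Vegfa and Pfkfb2 stood in few cells. Of these, 3 (Slc2a1, Slc2a8 and Pfkp) were called in a comparison, and whether greater depth would change the others was not tested.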
